A study of Ovis aries with 36 samples.

Results

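The semitendinosus (ST), a superficial hamstring muscle at the back of the thigh, was compared with the mean of 8 other skeletal muscles of the same lambs. The members are the 4 samples labelled Semitendinosus, 1 from each of 4 male Poll Dorset cross-bred lambs, out of 36 samples in all. The other 32 samples came from the rectus femoris (RF), longissimus lumborum (LL), semimembranosus (SM), gluteus medius (GM), adductor (AD), cranial gluteobiceps (GB), supraspinatus (SS) and psoas major (PM), with 4 samples per muscle. The lambs had no experimental treatment, were 14 months old, weighed 67 to 72 kg and came from different flocks. Each lamb gave all 9 muscles, and every sample was taken from the mid superficial belly, so that the values describe that part of the muscle. RNA was measured as read counts per locus, a stretch of the sheep genome assembled as 1 transcription unit, and 12461 of 31136 loci had enough reads to be tested.

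Skeletal muscle is a mosaic of slow fibres, which contract slowly, resist fatigue and rely on oxidation, and fast fibres, which contract quickly and rely more on glycolysis. The kinds of fibre differ in the isoforms they use of the same machinery: myosin light chains, the tropomyosin and troponin that gate the thin filament, and the pump and binding proteins that handle calcium in the sarcoplasmic reticulum. The semitendinosus of ruminants is known as a muscle with mostly fast fibres in its superficial part. The count files carry Ensembl identifiers but no gene symbols, and 0 of 25157 identifiers could be matched to a symbol, so genes were named only where their published coordinates fall on 1 tested locus that carries an Ensembl gene. Of 40 names with coordinates, 31 were paired in this way. Loci without an Ensembl gene can share the coordinates of a named one and are mentioned where they were called. All of these names had been picked by the study for differing between ST and SS or between SM and SS in these same samples. Their direction in ST is therefore not independent evidence.

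The 4 genes below belong to the slow-fibre group around which the comparison turns, and the study designed primers for their transcripts for quantitative PCR. The primers are shown, in lower case and from 5′ to 3′, because they mark the transcripts in question. PCR values are not used here.
MYL3 forward: tctccaagaacaaggacaccg
MYL3 reverse: atcttctgtcagcctctcacc
MYOZ2 forward: accacggttactgagatggg
MYOZ2 reverse: ggtgaagcagaggaaagagc
TNNT1 forward: gaaagaggaagaggagctggt
TNNT1 reverse: ggttctgaagcgctgttgttc
TNNC1 forward: aggagatgattgacgaggtgg
TNNC1 reverse: cttcatgcagcgaaccatcat

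Genes of slow fibres were lower in ST than in the other muscles, and the 11 loci at which the 4 ST samples lay below all 32 others (0.0883% of those tested) included MYL3, TPM3, MYLK3 and SIM2. The 4 ST samples lay above all 32 others at 7 loci (0.0562%), 1 of them called higher. Loci higher in ST formed a more mixed picture, which included PVALB, a calcium buffer of fast fibres, and several loci without a name. They also include XLOC_009395 on chromosome 15, which was high in the ST sample of animal 2 alone. In total 179 loci, 1.44% of those tested, differed from the mean of the other 8 muscles by edgeR's quasi-likelihood test, with a Benjamini-Hochberg adjusted p (FDR) no higher than 0.01 and a log2 fold change (log2FC) beyond 1 in either direction. Of these, 86 (0.69%) were higher in ST, with a median log2FC of 1.66, and 93 (0.746%) were lower, with a median of -2.05. The median over all loci tested was 0.00464. The loci lower in ST were lower in 4 of 4 animals in 93 of 93 cases, and those higher in ST were higher in 4 of 4 animals in 79 of 86 cases. They were called on these same 4 animals, so the agreement follows in large part from the selection and is not independent evidence. Without animal 1 there were 48 higher and 76 lower loci, without animal 4 there were 67 and 55, and in the fit that did not pair the samples by animal 70 and 42. Of the lower loci 50 had no Ensembl gene (53.8%), against 13 of the higher loci (15.1%) and 25.4% of all loci tested. Among the 93 lower loci, 20 are pieces of 1 region of chromosome 12 and not independent of each other. In that region 49 of 51 tested loci have no Ensembl gene, so it raises both the count of lower loci and this share.

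**Figure D1:**
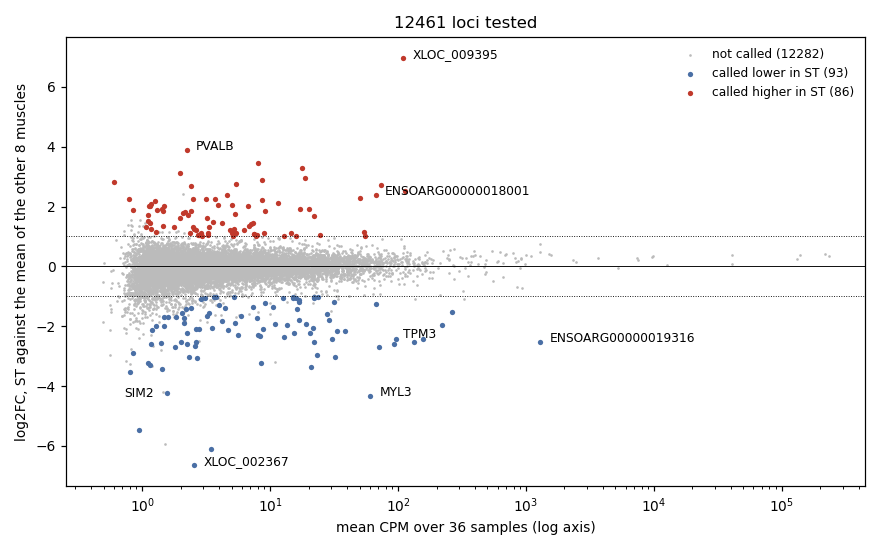
Each point is 1 of the 12461 loci tested, with its mean CPM (counts scaled to library size) over the 36 samples on a log axis and its log2FC in ST against the mean of the other 8 muscles. Red points are the 86 loci called higher, blue points the 93 called lower, and the dotted lines mark a log2FC of 1 and -1; MYL3 and SIM2 lie among the lowest points and PVALB among the highest.

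The libraries held 3699148 to 6427422 counts, and those of ST 4905225 to 6407360. The 4 most counted loci took 71.7 to 75.1% of the counts in ST and 65.7 to 78.3% in the others. The ST share was higher than the mean of the other muscles by 3.37 percentage points, with differences of 4.88, 4.57, 0.192 and 3.83 in animals 1 to 4 (two-sided exact permutation test within animals, p = 0.0283, smallest possible 0.000152). Without animals 1, 2 or 4 the p became 0.0933, 0.128 and 0.0645. With library sizes counted without such loci, 86 loci were called higher and 93 lower, all of them among the original calls. The scaling between libraries was redone after that change and largely offsets it. The same calls therefore do not test whether the higher share in ST affects them. A level of 3 counts, used as the floor of detection, was 0.495 to 0.797 CPM in ST.

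All 8 slow contractile genes that could be paired, of 18 on the list, were lower in ST, with a median log2FC of -2.57. Over all loci tested 0.746% were called lower. The names of these 8 came from the study's comparison of ST with SS in these same samples, where each was already lower in ST. Their shared direction is therefore largely set by how they could be named. In bulk tissue, fewer fibres of a kind and less RNA per fibre cannot be told apart. MYL3 (chromosome 19, 52560400 to 52569198 on Oar_v3.1), the essential light chain of slow and cardiac myosin, had 1.33, 1.09, 5.28 and 3.65 CPM in ST of animals 1 to 4. The other 32 samples ran from 17.97 to 205.7 CPM with a median of 58.3. No sample of another muscle reached down to the ST samples, and MYL3 was 19.9-fold lower in ST (log2FC -4.31 ± 0.36, quasi-likelihood FDR = 5.19e-11). The ± beside a log2FC is here the SE over 4 animals of the difference, within an animal, between ST and the mean of the other muscles in log2 CPM (prior count 2). With low counts such differences can be smaller than the fitted log2FC. The mean difference is given with the SE where the log2FC lies outside the differences of the 4 animals.

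TPM3 (chromosome 1, 103039221 to 103067829), the slow tropomyosin, had 11.4, 10.02, 18.5 and 19.5 CPM in ST and 24.6 to 284 CPM elsewhere, median 90.8. Again the groups did not overlap, and the log2FC of -2.60 ± 0.12 varied little between animals (FDR = 9.23e-10, quasi-likelihood test). A second locus with the same coordinates and no Ensembl gene was also called lower.

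MYLK3 (chromosome 14, 14547940 to 14606419), a kinase of the regulatory light chain known from the heart, was the third gene of this list without overlap. Its level was 3.45, 1.74, 1.48 and 1.503 CPM in ST against 4.82 to 53.2 CPM, median 20.5, in the other samples (log2FC -3.36 ± 0.36, FDR = 2.22e-09, quasi-likelihood test). The name rests on the end coordinate alone, and 2 further loci without an Ensembl gene at this position were called lower too.

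MYOZ2 (chromosome 6, 6264895 to 6303407), a Z-disc protein of slow and cardiac muscle, had 1.59, 1.52, 4.95 and 2.79 CPM in ST. Elsewhere it ran from 4.28 to 73.9 CPM, median 22.6, and 2 of 32 samples lay below the highest ST sample. ST was nonetheless the lowest of the 9 muscles in each of the 4 animals (log2FC -2.95 ± 0.21, FDR = 2.22e-09, quasi-likelihood test).

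The 3 subunits of the slow troponin complex were lower in ST by log2FC of -2.53 to -2.42. TNNT1 (chromosome 14, 59547242 to 59556889), which ties the complex to tropomyosin, had 16.7, 19.6, 23.6 and 32.6 CPM in ST and 27.3 to 280.8 CPM, median 133, elsewhere (log2FC -2.53 ± 0.19, FDR = 9.37e-08, quasi-likelihood test). TNNC1 (chromosome 19, 48403558 to 48406316), the calcium sensor, had 19.4, 26.6, 29.8 and 38.0 CPM in ST and 34.4 to 418 CPM, median 145, elsewhere (log2FC -2.43 ± 0.19, FDR = 1.59e-07). TNNI1 (chromosome 12, 78585640 to 78596742), the inhibitory subunit, had 2.92, 3.05, 6.10 and 10.3 CPM in ST and 6.51 to 76.7 CPM, median 30.8, elsewhere (log2FC -2.42 ± 0.34, FDR = 5.12e-06). In each of the 3 genes the highest ST sample was that of animal 4, where 1 other muscle was lower still, and in animals 1 to 3 ST was the lowest muscle.

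MYOM3 (chromosome 2, 241688442 to 241741074), a myomesin of the M-band, differed least among the 8. Its 5.04, 2.18, 9.89 and 4.51 CPM in ST overlapped the range of 2.54 to 64.6 CPM elsewhere, and 10 of 32 samples lay below the highest ST sample (log2FC -1.43 ± 0.28, FDR = 0.00404, quasi-likelihood test). The call was lost in 9 of 20 alternative analyses, among them those without animal 1, 2 or 4 (log2FC -1.32, -1.23 and -1.497) and the fit that did not pair the samples by animal.

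**Figure D2:**
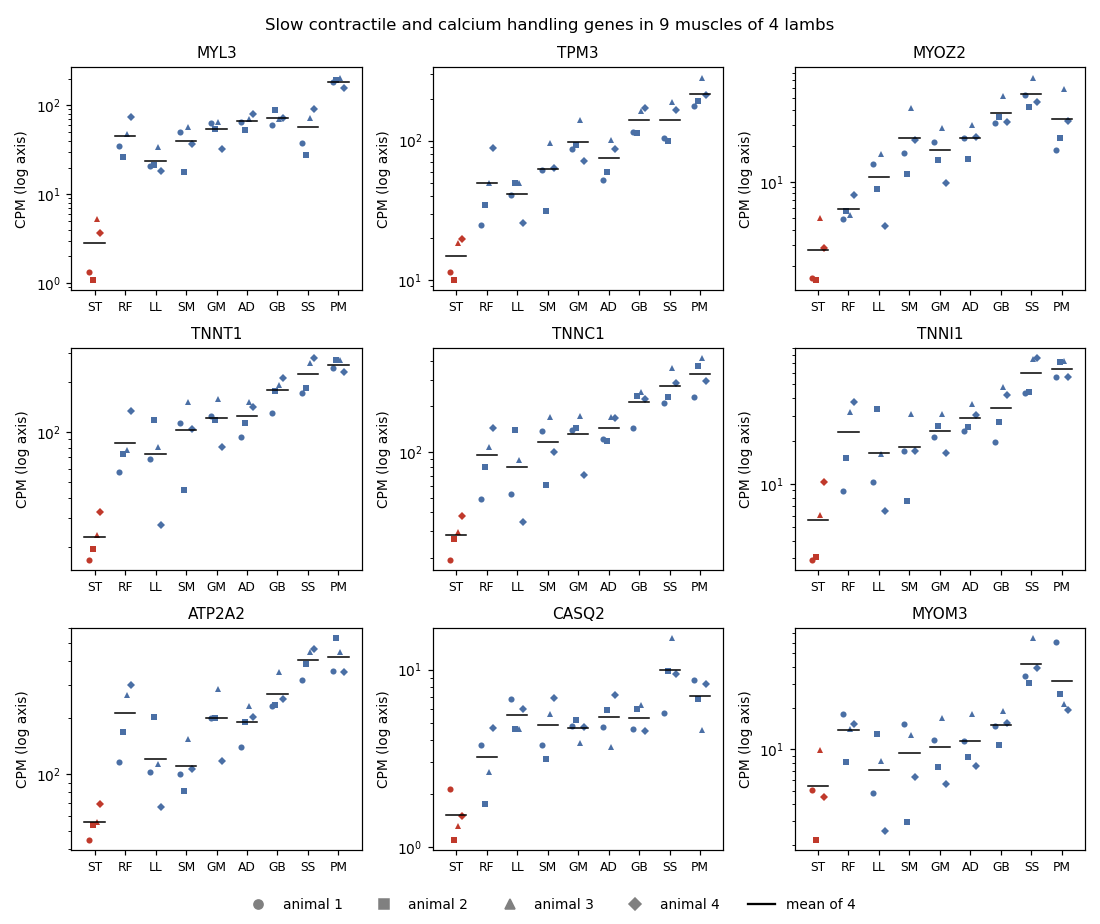
CPM on log axes of 7 slow contractile genes and of the calcium handling genes ATP2A2 and CASQ2, with 1 point per sample, a marker shape for each of the 4 animals and a line at the mean of 4. The ST samples, in red at the left of each panel, lie below all others for MYL3 (1.09 to 5.28 CPM) and TPM3 (10.02 to 19.5 CPM) and overlap the others for MYOM3.

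Genes that handle calcium moved in both directions. Of 30 on the list 3 could be paired, and ATP2A2 and CASQ2 were lower in ST while PVALB was higher. ATP2A2 (chromosome 17, 53803321 to 53860163), the calcium pump of slow and cardiac muscle, had 44.3, 53.8, 55.4 and 69.6 CPM in ST, and 1 of 32 other samples, which ran from 66.8 to 530.6 CPM with a median of 215, lay within that range (log2FC -1.94 ± 0.16, FDR = 1.53e-07, quasi-likelihood test). CASQ2 (chromosome 1, 92170833 to 92243108), a calcium store protein of cardiac and slow muscle, rested on 28 counts in ST, with 2.12, 1.09, 1.32 and 1.503 CPM against 1.75 to 15.1 CPM elsewhere (log2FC -1.88, mean within-animal difference -1.64 ± 0.17, FDR = 2.55e-05). ST was the lowest muscle for CASQ2 in all 4 animals.

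PVALB (chromosome 3, 180006084 to 180067626), a soluble calcium buffer that speeds relaxation of fast fibres, had 7.70, 6.97, 6.10 and 1.93 CPM in ST, against 0 to 17.4 CPM with a median of 0.305 elsewhere. The log2FC was 3.91 (FDR = 9.81e-09, quasi-likelihood test) and the mean within-animal difference 2.54 ± 0.25. RF had 7.29 ± 5.4 CPM (SD, n = 4), against 5.68 ± 2.6 CPM in ST. SS had 17.4 CPM in animal 1 and 1.24 to 2.18 CPM in animals 2 to 4, so that its mean of 5.63 ± 7.8 CPM became 1.72 ± 0.47 CPM (SD, n = 3) without animal 1. The other 6 muscles had means of 0 to 0.662 CPM. In AD all 4 samples were at 0, so that the size of the log2FC depends on how counts of 0 are treated.

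For 7 names the position holds 2 tested loci with an Ensembl gene, and the name was not assigned. At the position of MYL2, the regulatory light chain of slow myosin, and of its neighbour CCDC63 (chromosome 17, 54257918 to 54303146), both loci were lower in ST. XLOC_010305 had 12.7, 6.10, 8.41 and 14.8 CPM in ST and 15.7 to 205.4 CPM elsewhere, without overlap (log2FC -2.68 ± 0.34, FDR = 4.42e-07, quasi-likelihood test), and XLOC_010642 had a log2FC of -2.54 ± 0.32 (FDR = 1.59e-07). At the position of MYH7B, an ancient slow-type myosin heavy chain on chromosome 13, XLOC_006262 had 3.45, 2.18, 4.95 and 3.86 CPM in ST and 4.76 to 81.2 CPM elsewhere (log2FC -3.02 ± 0.34, FDR = 5.16e-06), and the second locus was not called. At the position of FABP3, which carries fatty acids in oxidative muscle and heart, XLOC_013489 had 8.50, 3.27, 4.12 and 4.08 CPM in ST against a median of 18.8 elsewhere (log2FC -1.80 ± 0.26, FDR = 2.15e-05), and again the second locus was not called. Of the 32 other samples 6 lay below the highest ST sample of XLOC_013489. Against LL (8.34 ± 6.0 CPM) and RF (9.92 ± 4.2 CPM) alone this locus was not called, with log2FC of -0.73 and -1.01. At the position of MYL6, a light chain of smooth and non-muscle myosin, neither locus was called, and the one with the lower FDR (XLOC_021379, log2FC -1.09 ± 0.20, FDR = 0.0237) was high in SS, with 71.9 ± 19 CPM, against 4.93 ± 0.87 CPM in ST.

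Among regulators of development, SIM2 was at 1 count in ST, and 2 homeobox genes were called higher, a call that rested on SS. SIM2 (chromosome 1, 267018135 to 267070595), a transcription factor of the bHLH-PAS family, had 1 count in the 4 ST samples together and 299 in the other 32, where it ran from 0.291 to 6.30 CPM. All 32 had at least 1 count, and 3 of them lay under the floor of 3 counts. The ratio of the other samples to ST was 30.7, with a 95% Clopper-Pearson interval from 5.47 to 1217 that covers counting error only (FDR = 1.16e-05, quasi-likelihood test). AD had the most, 4.01 ± 1.7 CPM, and SM 3.33 ± 1.2 CPM, while PM, SS and RF had 0.601 to 0.720 CPM on average. A locus without an Ensembl gene that lies just before SIM2 on the same chromosome (XLOC_002367, 266994223 to 267001200) was chosen after its values were seen: it had 0 counts in ST and 520 in the others, 0.291 to 8.92 CPM, and was at least 18.3-fold lower in ST, taking 3 counts over the 4 ST samples as the floor (FDR = 8.12e-06). Whether the 2 loci are separate transcripts was not tested.

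HOXD8 (chromosome 2, 132873609 to 132877353) and HOXC10 (chromosome 3, 132378062 to 132383225) belong to the homeobox family that sets position along the body and limb, and they were the 2 of 52 HOX genes that could be paired. HOXD8 had 9.03, 9.37, 11.5 and 12.5 CPM in ST, within the range of 0.229 to 19.5 CPM of the others (log2FC 1.09 ± 0.13, FDR = 0.000153, quasi-likelihood test). Against single muscles it was called higher than RF, at 1.42 ± 1.1 CPM, and SS, at 0.603 ± 0.63 CPM, and no other. HOXC10 had 3.19, 4.36, 2.80 and 3.65 CPM in ST and was at 0 in all 4 SS samples, while the other 7 muscles averaged 2.09 to 3.40 CPM (log2FC 1.23, mean within-animal difference 0.73 ± 0.12, FDR = 0.00131). With SS left out of the mean the log2FC became 0.65 for HOXD8 and 0.36 for HOXC10, and neither was called. HOXC10 also lost its call without animal 2 or 4, with log2FC of 1.13 and 1.16.

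**Figure D3:**
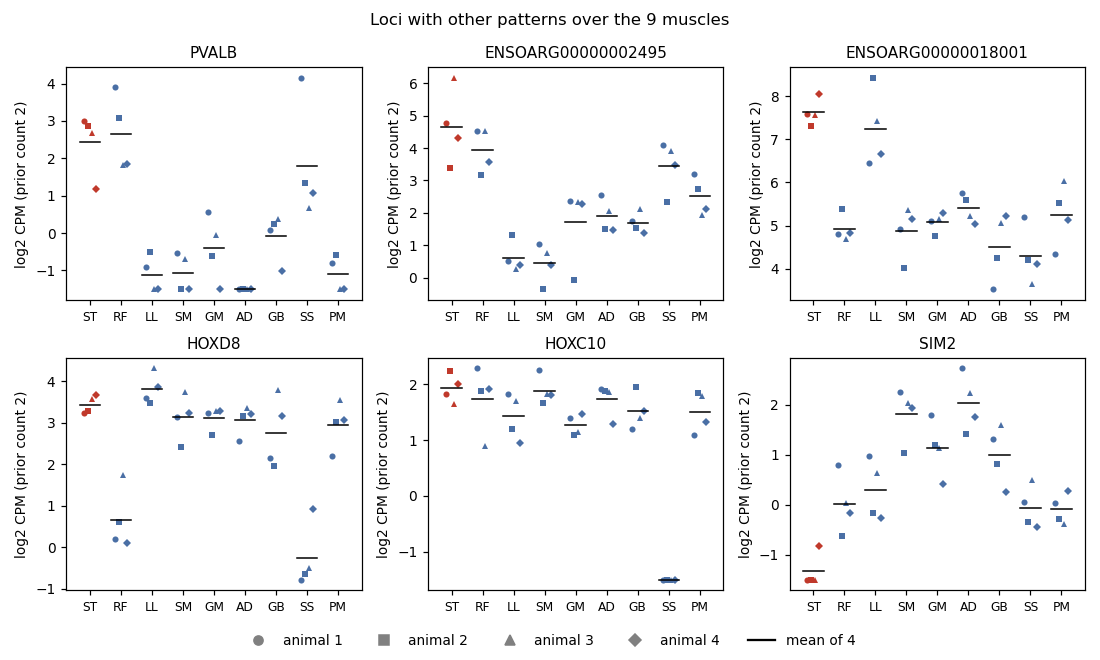
log2 CPM (prior count 2) of 6 loci with 1 point per sample, a marker shape for each animal and a line at the mean of 4. ENSOARG00000002495 is high in ST, RF and SS, PVALB is high in ST and RF and in the SS sample of animal 1, ENSOARG00000018001 is high in ST and LL, HOXC10 is at its floor in SS, where all 4 samples have 0 counts, and SIM2 is lowest in ST.

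Several loci that were higher in ST have no name in the files. ENSOARG00000002495 (chromosome 20, 49693089 to 49762526) had the smallest FDR among the higher loci named here, with 27.1, 10.02, 71.2 and 19.3 CPM in ST against 0.425 to 22.5 CPM and a median of 3.91 elsewhere (log2FC 2.90 ± 0.45, FDR = 1.20e-11, quasi-likelihood test). ST was the highest of 9 muscles in all 4 animals, with RF at 16.2 ± 7.3 CPM and SS at 11.7 ± 5.3 CPM next. A transcript unit without an Ensembl gene that begins just past its end (XLOC_015748, 49762606 to 49765006), which the study assigned to MYLK4, a kinase of the light chain kinase family, was likewise highest in ST in all 4 animals, with 6.11, 3.05, 13.03 and 7.08 CPM there, 3.11 ± 1.7 CPM in RF and 3.20 ± 2.0 CPM in SS (log2FC 3.104 ± 0.36, FDR = 2.60e-10).

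ENSOARG00000018001 (chromosome 12, 77817796 to 77842494) had 192, 158, 187 and 265 CPM in ST, and 2 of 32 other samples lay above the lowest of these. It was 5.21-fold higher in ST (log2FC 2.38 ± 0.19, FDR = 2.22e-09, quasi-likelihood test), and LL, at 175 ± 120 CPM, was the exception among the other muscles, which had means of 20.97 to 42.8 CPM. At the position of STXBP5L, a syntaxin-binding protein of vesicle release (chromosome 1, 183898068 to 184335029), XLOC_000840 had 6.90, 8.49, 5.94 and 4.72 CPM in ST, and a single sample of the other 32 lay above the lowest of these. Its within-animal differences were nearly constant, and ST was the highest muscle in all 4 animals (log2FC 1.86, mean within-animal difference 1.73 ± 0.05, FDR = 2.30e-07), while the second locus there was not called. TMEM2 (chromosome 2, 64359425 to 64440445), a cell-surface hyaluronidase, was also highest in ST in all 4 animals, with 34.0, 27.0, 23.4 and 23.0 CPM against a median of 16.3 elsewhere, but its log2FC of 0.73 ± 0.04 lay under the fold threshold (FDR = 6.12e-06). It was 1 of 338 loci (2.71%) that passed the FDR threshold at any fold. Of the other muscles LL had the most TMEM2, 22.3 ± 5.2 CPM against 26.8 ± 5.1 CPM in ST, with a log2FC of 0.27 between them. Over all loci tested ST was the highest muscle in 4 of 4 animals for 36 (0.289%) and the lowest for 56 (0.449%).

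Lower in ST, outside the contractile genes, were a matrix protein, a synaptic scaffold and a skeletal development gene. FREM2 (chromosome 10, 23560959 to 23715430), an extracellular protein of the basement membrane zone, had 0, 0.871, 1.81 and 0.644 CPM in ST and 0.340 to 7.97 CPM elsewhere, with ST lowest in all 4 animals on 18 counts (log2FC -2.05 ± 0.32, FDR = 1.15e-05, quasi-likelihood test). KIAA1217 (chromosome 13, 24120815 to 24477979), known for its part in vertebral disc development, had 6.90, 9.58, 8.58 and 4.94 CPM in ST and was lowest there in all 4 animals, with a log2FC of -1.06 ± 0.17 that lies close to the threshold (FDR = 2.73e-05). DLG2 (chromosome 21, 10629346 to 11743008), a scaffold protein of synapses, had 0.266, 0.653, 1.15 and 2.15 CPM in ST on 21 counts (log2FC -1.55 ± 0.42, FDR = 0.00186). LL had 1.13 ± 0.49 CPM and ST 1.06 ± 0.81 CPM, with a log2FC of -0.04 between them. A locus without an Ensembl gene at the position of DLG2 was also called lower. The call of DLG2 was lost without animal 1, 2 or 3, and that of KIAA1217 without animal 4 or without SS, where the log2FC became -0.94 and -0.99.

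Some loci lower in ST are known only by identifier. ENSOARG00000019316 (chromosome 7, 21104083 to 21157369) had 156, 175, 228 and 321 CPM in ST against 192 to 3114 CPM and a median of 1301 elsewhere, with 1 sample below the highest ST sample (log2FC -2.54 ± 0.24, FDR = 1.59e-07, quasi-likelihood test). ENSOARG00000013116 (chromosome 9, 89664737 to 89675620) had 87.1, 69.0, 121 and 93.4 CPM in ST and a median of 298 elsewhere (log2FC -1.52 ± 0.08, FDR = 1.59e-07). RF also had little of it, 73.9 ± 18 CPM against 92.6 ± 21 CPM in ST, and the other 7 muscles had means of 248 to 383 CPM. Of loci without an Ensembl gene, XLOC_001012 on chromosome 1 (230473614 to 230478546) had 0.797, 0.871, 0.825 and 0.859 CPM in ST and a median of 7.29 elsewhere (log2FC -3.22, mean within-animal difference -2.66 ± 0.16, FDR = 6.58e-05). At these coordinates the study listed a transcript unit as lower in ST than in SS in these same samples. Its direction is therefore not independent evidence. RF of animal 1 lay below every ST sample, at 0.394 CPM. XLOC_001012 was not called against RF, LL or SM alone (log2FC -2.29, -2.14 and -2.44). XLOC_002819, also on chromosome 1 (224445384 to 224776390), was lowest in ST in all 4 animals with 3.45 to 10.7 CPM (log2FC -1.17 ± 0.15, FDR = 2.53e-06). It was not called against SM (-0.66) or RF (-0.74) alone. XLOC_006974 on chromosome 13 (67072816 to 67076597) was higher, with 11.7, 7.41, 4.78 and 5.37 CPM in ST against a median of 1.36 (log2FC 2.25 ± 0.39, FDR = 4.55e-06). Against single muscles it was not called over RF (3.86 ± 2.6 CPM), SM, GB or SS, with log2FC of 0.89, 1.19, 1.37 and 1.60. Its within-animal difference was largest in animal 1, at 3.14 against 1.26 to 2.00 in the others.

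The remaining 14 of the 31 paired names, TMEM2 among them, were not called, with log2FC between -1.22 and 0.73. METTL21C, a lysine methyltransferase of muscle, had 6.64, 0.871, 0.989 and 1.29 CPM in ST and 58.3 ± 36 CPM in SS, against means of 1.498 to 7.03 CPM in the remaining muscles (log2FC -1.22 ± 0.35, FDR = 0.264, quasi-likelihood test). The locus of CHI3L1, a chitinase-like secreted protein, joins 2 Ensembl genes and had a log2FC of 0.72 ± 0.11 (FDR = 0.0340), with the least in SS, 4.72 ± 3.6 CPM against 59.7 ± 20 CPM in ST. SMYD2, another lysine methyltransferase, had a log2FC of 0.40 ± 0.15 (FDR = 0.0362), EYA1, a cofactor of homeobox transcription factors, 0.50 ± 0.22 (FDR = 0.361), and RIMS2, a protein of synaptic vesicle release, -0.50 ± 0.28 (FDR = 0.392). Of the 19 paired names taken from the comparison of ST with SS, 18 were called there and 15 also against the mean of the 8 muscles, in the same direction. Those lower than in SS were lower against the 8 muscles in 13 of 14 cases, those higher than in SS in 2 of 4, and the 2 comparisons share ST and SS samples. The paired name not called against SS was PDLIM1 (log2FC -0.13), which the study had listed as lower in ST. Whether the locus paired with PDLIM1 is the one the study measured was not tested, so this pairing is uncertain. Of other lists, 2 of 51 patterning and myogenic regulators were paired (SIM2, lower, and EYA1, not called), 2 of 37 fibroblast and matrix genes (FREM2, lower, and CHI3L1, not called) and 1 of 38 genes of glycogen and glycolysis (PPP1R3D, not called). Fast contractile genes, fatty acid oxidation, mitochondrial energy metabolism, early response genes and markers of adipocytes, endothelium, blood and immune cells and Schwann cells had none, nor did the general muscle markers ACTA1, CKM, MB, DES, TTN, MYH1, MYH2 and MYH7, so the share of other cell types and the fast isoforms were not tested by name. The labelled tissue could be checked through the slow contractile genes alone, of which the 8 that were paired were counted in all 36 samples.

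Set against each muscle in turn, ST differed least from RF and SM. Of the 12461 loci, 36 (0.289%) were called between ST and RF, with 7 higher (0.0562%) and 29 lower (0.233%) in ST, and 89 (0.714%) between ST and SM, with 51 higher (0.409%) and 38 lower (0.305%). GB, a muscle on the outer side of the thigh, gave 120 (0.963%), with 29 higher (0.233%) and 91 lower (0.73%). LL gave 193 (1.55%), with 89 higher (0.714%) and 104 lower (0.835%), and AD 195 (1.56%), with 107 higher (0.859%) and 88 lower (0.706%). PM gave 204 (1.64%), with 97 higher (0.778%) and 107 lower (0.859%). The most were found against GM, with 275 (2.21%), 85 higher (0.682%) and 190 lower (1.52%), and against SS, with 286 (2.3%), 96 higher (0.77%) and 190 lower (1.52%). The 8 comparisons share the ST samples and their counts were not tested against each other. The counts fell when an animal was left out: without animal 4 to 12 for RF, 33 for SM, 60 for GB and 114 for GM, without animal 1 to 96 for LL and 111 for PM, and without animal 2 to 127 for AD and 166 for SS. The same contrast made for each of the other muscles against its remaining 8 called 7 to 188 loci, with 188 for SS, 68 for LL and 60 for SM next to the 179 of ST.

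Across the single comparisons MYL3, MYLK3, TPM3, TNNT1 and TNNC1 were called lower in ST than in each of the 8 muscles. MYL3 had its smallest difference against LL (log2FC -3.03) and its largest against PM (-6.03), where it reached 185 ± 20 CPM. For MYOZ2 the comparison with RF, at 5.93 ± 1.3 CPM, was the exception (log2FC -1.17, FDR = 0.12, quasi-likelihood test), and for TNNI1 those with LL (-1.62) and SM (-1.65) missed the FDR threshold. ATP2A2 was called in 7 of 8, with SM at 110 ± 30 CPM against 55.8 ± 10 CPM in ST the exception (-0.97). FREM2 was likewise called against 7 muscles, all but SM (-1.19), and CASQ2 against all but RF (-1.08). MYOM3, at the other end, was called against SS (-2.97) and PM (-2.54) only.

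**Figure D4:**
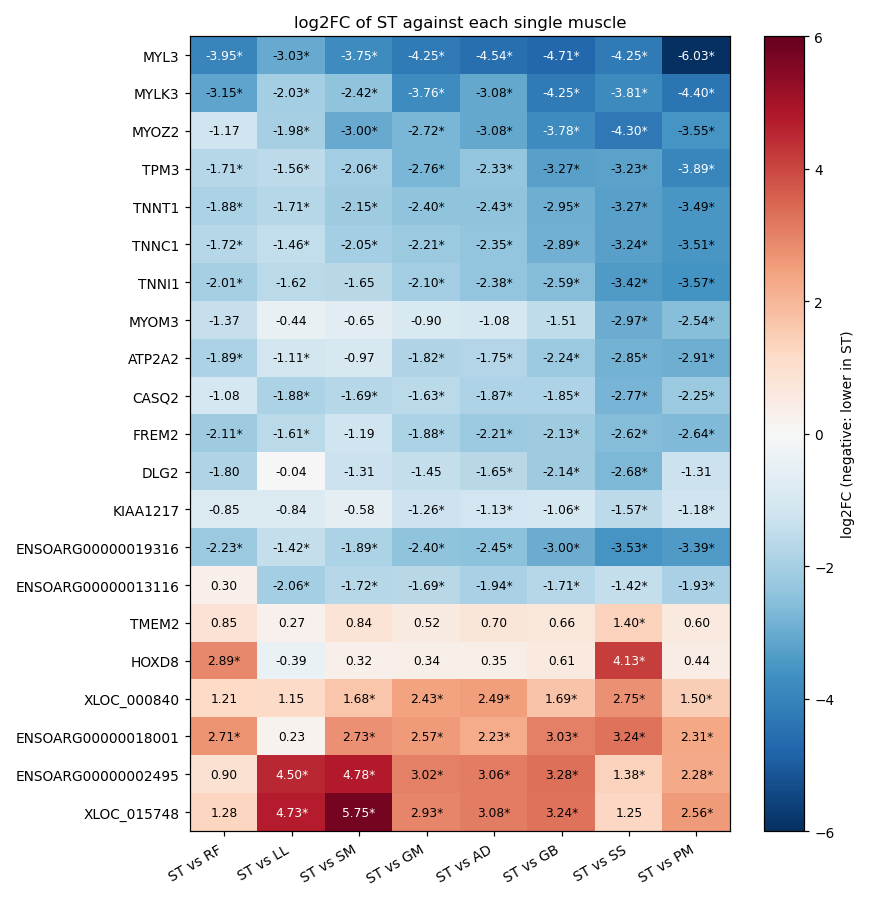
log2FC of ST against each single muscle for 21 loci, in rows, with blue for lower and red for higher in ST and an asterisk where a locus was called. MYL3 is lower than in every muscle, from -3.03 against LL to -6.03 against PM, while HOXD8 is called against RF (2.89) and SS (4.13) only.

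Many loci of 1 stretch of chromosome 12 were called lower in ST together. In the coordinates 18028459 to 18720283, which the study assigned in part to an unannotated transcript of ESRRG, an orphan nuclear receptor of oxidative metabolism, 76 loci share the same start and end and 73 have no Ensembl gene. Of 51 tested, 20 were called lower and 0 higher, beside 0.746% of all loci tested that were called lower, and all 51 had a negative log2FC, with a median of -1.81 and a range from -3.16 to -0.47. The study had listed the ESRRG transcript as lower in ST than in SS in these same samples, so the direction is not independent evidence. These loci are pieces of 1 assembled region and not independent of each other. Their summed level over loci without an Ensembl gene was 92.4, 67.3, 87.9 and 21.9 CPM in ST of animals 1 to 4, against means of 182 CPM in SM to 380 CPM in LL. The spread within muscles was wide, and LL ranged from 113 to 1082 CPM. Animal 1 had the highest summed level in every muscle, which raised these muscle means. Compared within each animal, ST was still the lowest muscle. The next lowest had 285 (SM), 95.4 (PM), 88.8 (SM) and 104 CPM (PM) in animals 1 to 4, so that the difference was small in animal 3. XLOC_005771 had 0.531, 0.436, 0.165 and 0.215 CPM in ST and 1.24 to 7.50 CPM elsewhere (log2FC -3.06, mean within-animal difference -2.19 ± 0.12, FDR = 1.59e-07, quasi-likelihood test), and XLOC_005799 had 12.7, 6.97, 10.7 and 3.43 CPM in ST and 12.99 to 132 CPM elsewhere (log2FC -2.15 ± 0.32, FDR = 1.19e-06). In both the 4 ST samples lay below the other 32. They were the only 2 of the 51 tested loci of this region where this held, beside 0.0883% of all loci tested. ST was the lowest muscle in 4 of 4 animals at 10 of the 51, beside 0.449% of all loci tested. XLOC_005771 rested on 6 counts in ST, and each ST sample lay under its floor of 3 counts.

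The called loci fell into groups that varied together over the 36 samples, taken here as a description by clustering on Pearson correlation. The largest group of lower loci held 42, among them MYL3, MYLK3, TPM3, MYOZ2, MYOM3, the 3 slow troponins, ATP2A2, CASQ2, DLG2, KIAA1217 and ENSOARG00000019316, and its within-animal differences in mean log2 CPM were -1.71, -2.11, -1.82 and -1.88 in animals 1 to 4. ST averaged 1.40 ± 0.20 (SD, n = 4) in mean log2 CPM, LL 2.45 ± 0.42, SM 2.79 ± 0.26 and RF 2.83 ± 0.36, and SS and PM, at 3.98 ± 0.32 and 3.88 ± 0.072, stood at the other end. A second group of 23 lower loci was mostly the chromosome 12 region, with differences of -2.55, -1.38, -1.31 and -1.95.

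Loci higher in ST differed more from animal to animal than those lower, as the values and SDs here describe. The largest group held 51 of the 86, and its within-animal difference was 2.80 in animal 1 against 1.06, 0.587 and 1.67 in animals 2 to 4, with 48 of 51 loci differing most in animal 1. Over all 86 higher loci the median difference was 2.17, 1.11, 0.838 and 1.36 in animals 1 to 4, and over the 93 lower loci -1.67, -1.67, -1.45 and -1.73. The SD over animals had a median of 0.816 for the higher loci, 0.566 for the lower ones and 0.365 for all loci tested. Without animal 1, 48 loci were called higher and 76 lower, 44 of the 86 higher loci were still called, and 21 of the 51 in the largest group. In mean log2 CPM this group stood at 4.74, 2.84, 2.54 and 3.46 in ST of animals 1 to 4, and GB of animal 1 reached 3.55. The second group of 10 higher loci, with PVALB, ENSOARG00000002495 and XLOC_015748, averaged 2.68 ± 0.49 in ST, 2.36 ± 0.33 in RF and 1.82 ± 0.48 in SS, and 0.150 to 0.890 in the other muscles, with differences of 1.86, 1.26, 2.13 and 1.66 in animals 1 to 4.

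**Figure D5:**
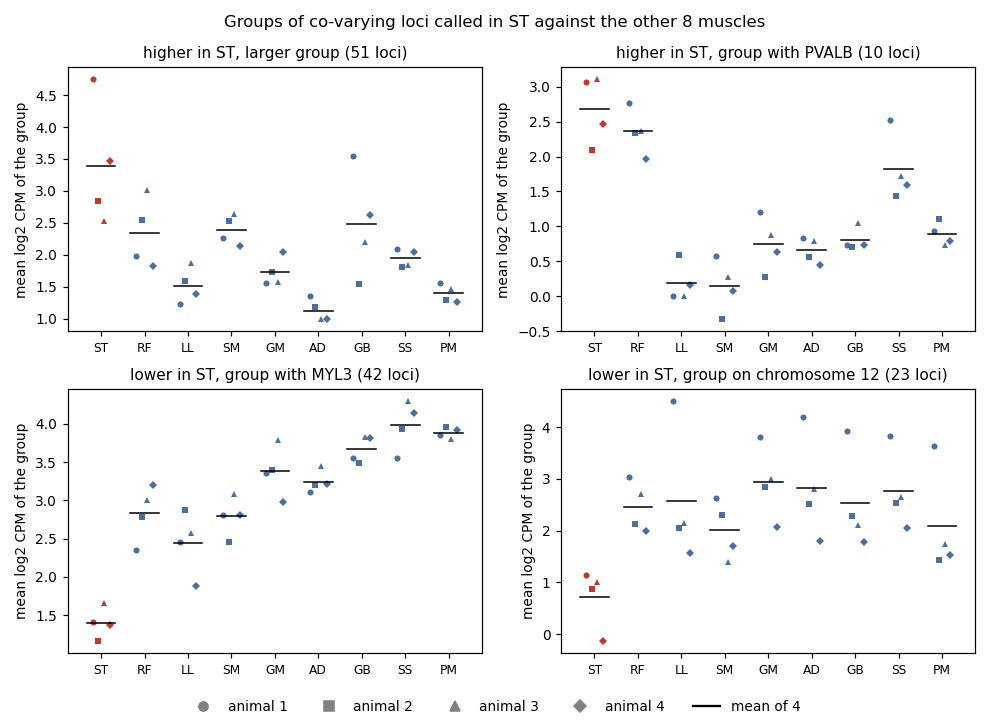
Mean log2 CPM of 4 groups of co-varying loci called in ST, with 1 point per sample, a marker shape for each animal and a line at the mean of 4. The group with MYL3 is lowest in all 4 ST samples, the group with PVALB is high in ST, RF and SS, and in the larger higher group the ST sample of animal 1 lies above the rest.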

How the data were processed

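Total RNA of 36 muscle samples was sequenced with 100-bp paired-end reads. The authors aligned the reads to Oar_v3.1 with Tophat 2.0.13 in repeated rounds, assembled loci with Cufflinks 2.2.1 together with the Ensembl annotation and used htseq-count to obtain the reads of each locus, whose strand setting is not given in the sources used here. The deposited values are whole-number counts without normalization. Of 31530 entries 394 repeat a locus under another Ensembl gene and were dropped.

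Loci were filtered with filterByExpr by muscle, normalized by the TMM method and fitted with edgeR 4.0.16 (R 4.3.3) on muscle and animal over all 36 samples, and ST was set against the mean of the other 8 muscle coefficients with the quasi-likelihood test. CPM are counts relative to library sizes after TMM scaling. The SE beside a log2FC is that of 4 within-animal log2 CPM differences (prior count 2). Depth sets the precision of each locus, and floors and intervals cover counting error only, since there were no molecular identifiers. Coordinates are those of the assembled locus, 1-based, and loci that overlap or share coordinates may share reads.

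Samples were paired by the number in their titles, taken as the animal. Deviations from muscle means correlated at 0.236 on average between samples of the same animal (144 pairs) and at -0.0777 between animals. Such deviations cancel out over the animals of a muscle, so the value between animals is negative largely by construction and adds no separate contrast. ST samples differed from each other beyond counting noise (chi-square per degree of freedom 7.79 to 13.7). The common biological coefficient of variation was 0.195. On simulated counts, 100 of 100 loci changed by a log2FC of 1.5 and 100 of 100 changed by 2.5 were called among 12461 loci, all of them at or above the median level.

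Genes named were up to 4 called members per list and direction, names from the study's tables paired by coordinates with at least 90% overlap, at most 2 identifiers per direction and up to 3 loci without an Ensembl gene per direction. Members and lists were chosen with earlier results of these data known. XLOC_002367 and XLOC_009395 were chosen after their values were seen. Lanes of the samples are not given in the sources used here. Alternatives were the likelihood ratio test, DESeq2 1.42.0, RLE size factors, other filters, thresholds and library sizes, no animal term, SS or SM left out, each animal left out and, added after seeing the data, each ST library left out and a robust fit.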

Additional observations from a re-analysis of the deposited data

Results flagged for a closer look

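Of 47 within-animal differences checked, 3 had 1 animal that lay apart from the other 3 by Dixon's test, which chance alone does in about 1 in 20 groups.

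XLOC_009395, a locus without an Ensembl gene on chromosome 15 (17226738 to 17264088), had 3827 CPM in the ST sample of animal 2 and 1.37 to 9.07 CPM in the 32 samples of the other muscles. The other 3 ST samples had 2.12, 1.65 and 2.58 CPM. Its within-animal log2 difference was 9.88 in animal 2 and -0.50, -0.51 and -1.09 in animals 1, 3 and 4, so that the call as higher in ST rests on 1 library. A pair of other loci with the same coordinates were called lower in ST.

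ENSOARG00000019316 differed by -1.82 in animal 4 and by -2.82 to -2.68 in the others, and was lower in ST in 4 of 4 animals. XLOC_001012 on chromosome 1 differed by -3.15 in animal 3 and by -2.52 to -2.49 in the others, at 16 counts in ST in all, likewise lower in 4 of 4 animals.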

How the results depend on the processing

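Against 179 called loci (86 higher and 93 lower in ST), no filter on low counts gave 307 (135 and 172), at least 10 counts in every sample 53 (17 and 36, of 5151 tested), an FDR of 0.05 gave 277 (179 lower, 35.4% of the calls higher) and an FDR of 0.01 at any fold 338 (193 and 145). The likelihood ratio test called 93 higher and 130 lower, DESeq2 83 and 82, RLE size factors 86 and 95, the mean without SS 79 and 84 and without SM 85 and 110. In the fit without the replicate block 112 were called, 42 of them lower and 62.5% higher. Leaving out an animal, or only its ST library, gave 121 to 194 loci, 48 to 92 higher and 55 to 103 lower. The higher count was smallest without animal 1 (48) or its ST library (49) and the lower count without animal 4 (55) or its ST library (56). Fewer samples enter these fits.

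For single muscles, the fit without the block called 27 loci against SM, 48 GB, 112 GM, 11 RF, 130 SS, 86 LL, 93 AD and 114 PM, and the likelihood ratio test 144 against SM, 416 GM and 68 RF. Leaving out animals gave 33 to 66 for SM, 60 to 115 for GB, 114 to 227 for GM, 12 to 34 for RF, 166 to 263 for SS, 96 to 219 for LL, 127 to 143 for AD and 111 to 161 for PM. The share of the most counted loci differed by 2.86 to 4.43 percentage points.

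Of 681 values for the 35 called loci named, under 20 alternatives, 653 kept direction and call, 26 lost the call and 2 reversed, both of XLOC_009395 (-0.86 without animal 2, -0.85 without that ST library, and up to 7.78 when another animal was left out). Without the block HOXD8 (1.07), MYOM3 (-1.39) and XLOC_002819 (-1.14) were no longer called. METTL21C was called with no filter on low counts, as was XLOC_021379, which was also called by the likelihood ratio test and DESeq2. Causes were not tested. At this depth loci under about 0.495 to 0.797 CPM in ST cannot be told from 0.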

Other observations

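A second locus high in both ST and LL, as ENSOARG00000018001 was, is XLOC_029313, which has no Ensembl gene and lies on an unplaced scaffold (JH922679.1, 2013 to 2958). It had 20.2, 13.5, 14.0 and 23.4 CPM in ST, 16.7 ± 11 CPM in LL (SD, n = 4) and means of 2.46 to 4.78 CPM in the other 7 muscles (log2FC 2.02 ± 0.20 against the mean of 8, FDR = 1.32e-06, edgeR's quasi-likelihood test). Against LL alone its log2FC was 0.10.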
